A study of Mus musculus with 6 samples.

Results

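GABA-A receptors are the chloride channels through which GABA inhibits cortical neurons, and 7 of their subunit genes are described here: the alpha subunits Gabra2, Gabra3, Gabra4 and Gabra5, the beta subunits Gabrb1 and Gabrb2, and the delta subunit Gabrd. They were taken by symbol from a list, out of 55471 gene identifiers in the count table. The members were chosen with earlier results of these data known. All 7 had enough counts to be tested. Other subunit genes of the family are not analysed here. The RNA came from primary cortical neurons of CD1 mouse embryos at E14.5-15, genotype WT for the control group and Opa1 knock-down for the other. Every culture received the mitotic inhibitor cytosine arabinoside at 2 uM and a lentivirus on day 6, which carried a control short hairpin RNA (shControl, 3 libraries) or one against the inner-membrane fusion GTPase Opa1 (shOpa1, 3 libraries), and was harvested on day 11. The replicates are described only as biological, so a p-value here reflects only how these libraries vary, and the RNA is that of the whole culture. The comparison asks how the transcripts of neurons change when Opa1 is depleted.

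A GABA-A receptor is a ring of subunits around a chloride pore, usually built of alpha and beta subunits together with a gamma or a delta subunit. The beta subunits contribute to the GABA binding site and are needed for the receptor to reach the surface. The alpha subunit sets where the receptor sits and how it responds to GABA: alpha-2 and alpha-3 receptors are mostly synaptic, alpha-5 receptors are largely extrasynaptic and carry tonic current, and alpha-4 often pairs with delta in extrasynaptic receptors that are sensitive to neurosteroids. In the developing cortex alpha-2, alpha-3 and alpha-5 dominate.

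Library totals ran from 24676709 to 32961580 counts. Opa1 itself was measured at 201.8, 204.6 and 201.9 CPM (reads scaled to a common library size) in shControl and at 10.2, 8.64 and 8.50 CPM in shOpa1, a 22.3-fold fall (log2 fold change -4.48, standard error 0.0876, edgeR adjusted p = 2.09e-06). Same-numbered libraries of the 2 groups resembled each other, and the pair numbered 3 separated from pairs 1 and 2 on a principal component, so calls are also given from a blocked fit, in which the replicate number is a covariate. Transcripts of neurons were abundant, and 6 of 7 microglial markers were below 1 CPM in every library. Of all tested genes, edgeR called 20.0% lower and 18.9% higher at an adjusted p under 0.05, and 30.7% and 28.8% in the blocked fit. The marker counts that follow stand beside those shares. Neuronal markers were themselves lower in shOpa1: 6 of 8 fell and 1 rose (7 and 1 in the blocked fit). Their summed level was 8403 to 8908 CPM in shControl and 5654 to 6077 in shOpa1. Of excitatory markers 3 of 7 fell, and all 7 in the blocked fit (922 to 1101 against 563 to 723 CPM summed). Of 12 tested inhibitory interneuron markers 5 fell and 1 rose, blocked 9 and 1 (2723 to 3228 against 1872 to 2445 CPM). Of 8 astrocyte markers 3 fell and 1 rose, blocked 7 and 1 (249 to 423 against 122 to 186 CPM). Of 6 tested oligodendrocyte lineage markers 2 fell, blocked 3 (45.9 to 72.2 against 37.4 to 52.3 CPM), and the 7 microglial markers summed to 5.61 to 8.09 and 3.36 to 4.77 CPM. None of the listed markers was at 0 in all libraries. The part of these shifts in the subunit results was not tested, and in bulk RNA fewer cells of a type and less RNA per cell cannot be told apart.

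The subunits moved in both directions. Gabra2, Gabrb1 and Gabrb2 fell 1.49- to 1.62-fold, Gabra5 rose 1.33-fold, and Gabra3, Gabra4 and Gabrd did not pass the test without a block. That is 3 lower and 1 higher of 7, in an experiment where 38.9% of the 16562 tested genes were called, 20.0% lower and 18.9% higher (edgeR's quasi-likelihood test with Benjamini-Hochberg adjustment over all tested genes, at 0.05). Scaled by library totals only, which moved the median of all tested genes to 0.11, 4487 genes were higher and 2500 lower, and the subunits were again 3 lower and 1 higher. With the replicate block Gabra3 was also lower, so 4 were lower and 1 higher, against 59.5% of tested genes called, 30.7% lower and 28.8% higher. In replicates 1 and 2 alone 4 were lower and 2 higher, against 50.9% called, 26.1% lower and 24.8% higher. The median log2 fold change of the 7 was -0.40, beside -0.01 over all tested genes. For 4 of the 7 every shOpa1 library lay on one side of every shControl library, which held for 51.8% of tested genes.

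**Figure D1:**
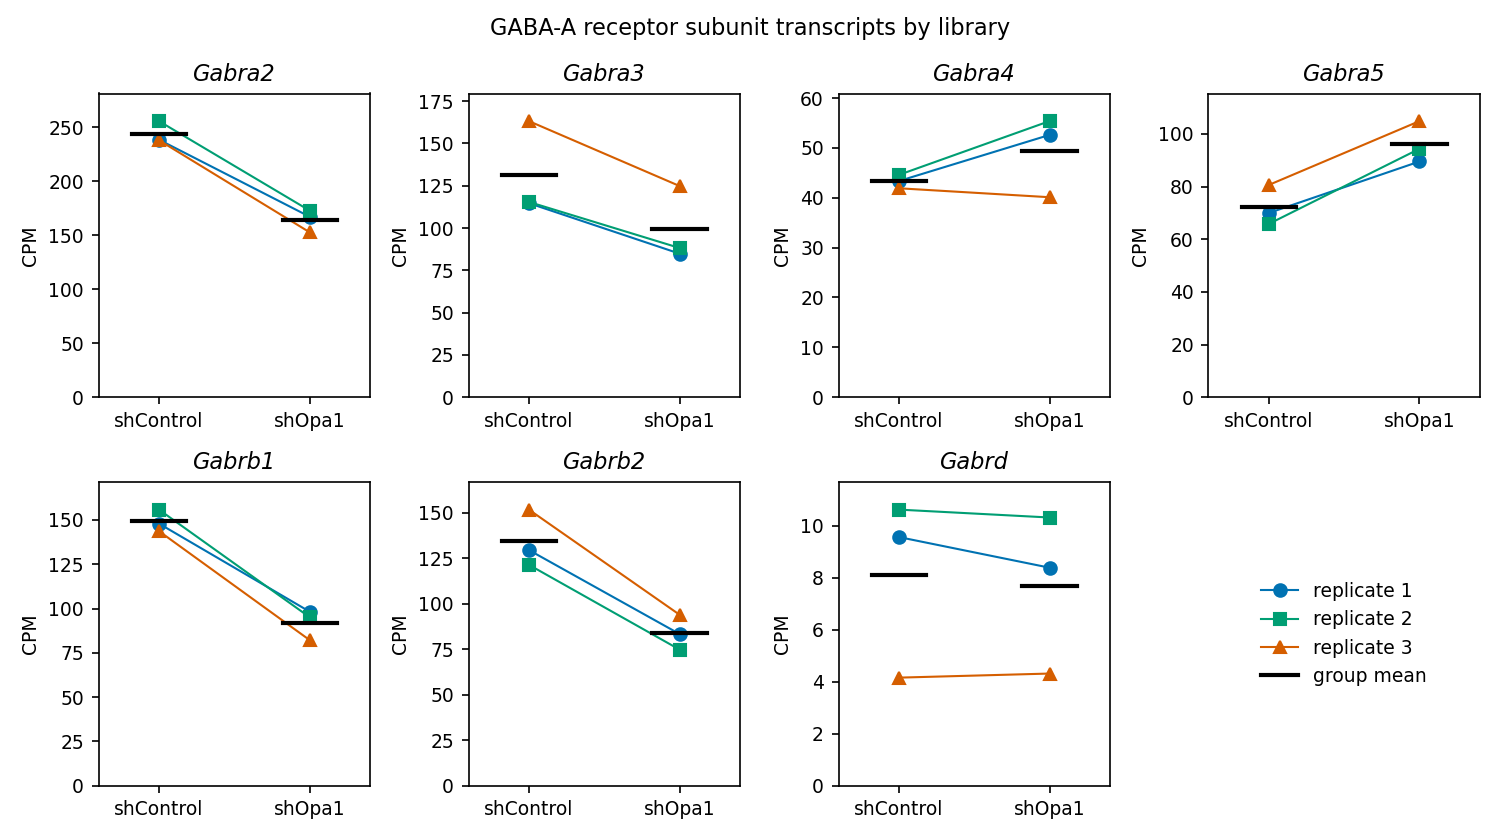
Level of each subunit transcript in the 6 libraries, in CPM scaled by TMM on a linear axis from 0, with lines joining libraries of the same replicate number and black bars at the group means (n = 3). Gabra2, Gabrb1 and Gabrb2 are lower and Gabra5 is higher in all 3 shOpa1 libraries, whereas for Gabrd the libraries numbered 3 lie at 4.15 and 4.31 CPM and the other 4 between 8.38 and 10.6.

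Among the alpha subunits, Gabra2, which encodes the synaptic alpha-2 subunit, fell. Gabra2 (ENSMUSG00000000560) lies at chr5:70957597-71095849 on the minus strand (GRCm38, as are all gene positions here). Its level was 238, 256 and 238 CPM in shControl replicates 1 to 3 and 167, 173 and 153 CPM in shOpa1. The 3 shOpa1 libraries all lay below the 3 shControl libraries. The means were 244 ± 10.1 and 164 ± 10.4 CPM (SD, n = 3), giving a log2 fold change of -0.57 (standard error 0.0675, edgeR adjusted p = 0.000807), a fall of 1.49-fold.

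Gabra5, the alpha subunit of tonic extrasynaptic receptors, rose. It lies at chr7:57407672-57510059 on the minus strand (ENSMUSG00000055078). It was counted at 70.0, 65.8 and 80.6 CPM in shControl and at 89.5, 94.4 and 104.9 CPM in shOpa1, without overlap between the groups. The means were 72.1 ± 7.64 and 96.3 ± 7.85 CPM (SD, n = 3). edgeR gave a log2 fold change of 0.42 (standard error 0.0967, adjusted p = 0.0127), a rise of 1.33-fold, and the differences within pairs were 0.35, 0.52 and 0.38 on the log2(CPM + 0.5) scale. Without shControl replicate 1 the edgeR adjusted p was 0.0507 and without shControl replicate 2 it was 0.0521, while blocking on the replicate number gave 3.75e-05. Exons of an overlapping predicted gene cover 4.98% of the exonic length of Gabra5, and reads were not separated by strand in the header's command.

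Gabra3, which encodes the synaptic alpha-3 subunit, was lower in shOpa1 within each pair and higher in the libraries numbered 3 of both groups. The gene lies at chrX:72432681-72656848 on the minus strand (ENSMUSG00000031343). It was measured at 115, 115 and 163 CPM in shControl and at 84.9, 88.2 and 125 CPM in shOpa1. The shOpa1 library numbered 3 was higher than the shControl libraries numbered 1 and 2, so the groups overlapped. The library numbered 3 was 1.42 times the mean of the other 2 in shControl and 1.44 times in shOpa1. Fitted without a block, Gabra3 stood at -0.40 (standard error 0.199, edgeR adjusted p = 0.158). With the replicate block it was again -0.40, with a standard error of 0.0450 (edgeR adjusted p = 1.75e-05), and the within-pair differences were -0.43, -0.39 and -0.39. In replicates 1 and 2 alone it was -0.41 (edgeR adjusted p = 0.000144), and without shOpa1 replicate 3 it was -0.60 (edgeR adjusted p = 0.0368).

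Gabra4, the alpha subunit that often partners delta, was the alpha transcript with the lowest level per length. It lies at chr5:71569749-71658308 on the minus strand (ENSMUSG00000029211). Its level was 43.3, 44.6 and 41.9 CPM in shControl and 52.6, 55.4 and 40.1 CPM in shOpa1. The shOpa1 libraries numbered 1 and 2 lay above all shControl libraries and the one numbered 3 lay below them. On the log2 scale Gabra4 stood at 0.19 (standard error 0.121, edgeR adjusted p = 0.256), and at 0.18 with the replicate block (edgeR adjusted p = 0.0613). It passed in replicates 1 and 2 alone, at 0.30 (edgeR adjusted p = 0.00316), and without shOpa1 replicate 3, at 0.32 (edgeR adjusted p = 0.00991). In pair 3 the difference was -0.06, against 0.28 and 0.31 in pairs 1 and 2.

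The beta subunits fell together. Gabrb1 (ENSMUSG00000029212), at chr5:71658113-72149037 on the plus strand, was counted at 148, 156 and 144 CPM in shControl and at 98.2, 95.1 and 82.2 CPM in shOpa1. All 3 shOpa1 libraries lay below all 3 shControl libraries. The means were 149 ± 6.16 and 91.9 ± 8.51 CPM (SD, n = 3), with a log2 fold change of -0.70 and a standard error of 0.0811 (edgeR adjusted p = 0.000744), a fall of 1.62-fold. Gabrb2 (ENSMUSG00000007653), at chr11:42419757-42629028 on the plus strand, was counted at 129, 121 and 152 CPM in shControl and at 83.3, 74.7 and 93.9 CPM in shOpa1. These groups did not overlap either. The means were 134 ± 15.7 and 84.0 ± 9.59 CPM (SD, n = 3), giving a log2 fold change of -0.68 (standard error 0.112, edgeR adjusted p = 0.00322), a fall of 1.6-fold. The within-pair differences were -0.59, -0.71 and -0.80 for Gabrb1 and -0.63, -0.70 and -0.69 for Gabrb2.

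Gabrd, the delta subunit of extrasynaptic receptors, had the lowest level per length of the 7. It lies at chr4:155384980-155398112 on the minus strand (ENSMUSG00000029054). It was counted at 9.56, 10.6 and 4.15 CPM in shControl and at 8.38, 10.3 and 4.31 CPM in shOpa1, from 112 to 353 reads per library. The 2 libraries numbered 3 were the lowest of all, at 0.412 and 0.461 times the mean of the other 2 libraries of their group. On the log2 scale Gabrd stood at -0.08 (standard error 0.435, edgeR adjusted p = 0.903), and at -0.07 in the blocked fit (standard error 0.104, edgeR adjusted p = 0.592). A change was not detectable in either fit.

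**Figure D2:**
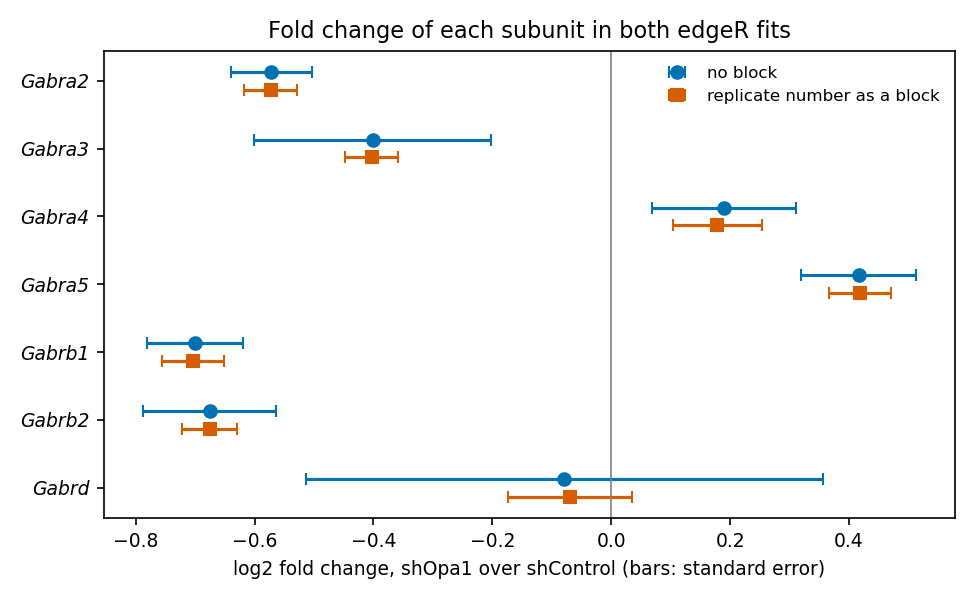
Subunit log2 fold changes, shOpa1 over shControl, in the edgeR fit without a block (circles) and with the replicate number as a block (squares). Bars are standard errors computed from the test statistic. The fold changes hardly differ between the fits, while the standard error shrinks most for Gabra3, from 0.199 to 0.0450, and Gabrd, from 0.435 to 0.104.

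The authors' deposited table, whose fold changes differed by more than 1e-05 from a DESeq2 fit with replicate 3 as a second batch for 0 of 32943 genes, called 5 of the 7 subunits. In the authors' deposited table Gabra2, Gabrb1 and Gabrb2 stand at log2 fold changes of -0.56, -0.69 and -0.67. Gabra5 stands at 0.43 (adjusted p = 2.35e-09) and Gabra3 at -0.39 (adjusted p = 4.18e-10) in the authors' deposited table, from DESeq2. Gabra4 at 0.19 (adjusted p = 0.0970) and Gabrd at -0.05 (adjusted p = 0.854) were not called in the authors' deposited table from DESeq2.

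To compare genes with each other, levels were expressed per length as TPM, the usual per-length unit in which the values of a library add up to a fixed total, using the exon length given for each gene. In shControl the order was Gabra3 at 118 ± 28.2, Gabra2 at 112 ± 1.84, Gabra5 at 85.4 ± 11.6, Gabrb2 at 74.3 ± 10.9, Gabrb1 at 37.9 ± 0.392, Gabra4 at 25.0 ± 0.140 and Gabrd at 9.84 ± 4.02 TPM (SD, n = 3). Among neighbours in that order, the library ranges overlapped for Gabra3 and Gabra2 and for Gabra5 and Gabrb2. In shOpa1 Gabra5 came first at 127 ± 11.3 TPM, ahead of Gabra3 at 99.6 ± 23.3 and Gabra2 at 84.4 ± 4.30. Gabrb2 followed at 52.0 ± 6.78, Gabra4 at 31.9 ± 4.89, Gabrb1 at 26.1 ± 2.32 and Gabrd at 10.4 ± 4.03 TPM (SD, n = 3). Here the ranges overlapped for Gabra5 and Gabra3, for Gabra3 and Gabra2 and for Gabra4 and Gabrb1. The level of Gabrb1 rests on an exonic length of 13838 bases, the longest of the 7, most of it 3′ UTR. Summed over the 7 subunits the level was 443, 430 and 515 TPM in shControl and 419, 415 and 461 TPM in shOpa1, ranges that overlapped.

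Among the alpha transcripts, Gabra5 took a larger share and Gabra2 a smaller one in all 3 shOpa1 libraries than in any shControl library. A share within a library does not depend on how libraries are scaled. Gabra5 made up 25.8, 24.0 and 25.4% of the 4 alpha transcripts, in counts per kilobase, in shControl and 36.6, 36.9 and 37.7% in shOpa1. The groups did not overlap, at 25.1 ± 0.975 and 37.1 ± 0.538% (SD, n = 3), a difference of 12.0 percentage points. Gabra2 made up 34.3, 36.2 and 29.2% in shControl and 26.6, 26.3 and 21.3% in shOpa1, again without overlap, a mean difference of -8.48 percentage points. For each of these shares the exact two-sided permutation test, which ignores the pairing, gave p = 0.1, the smallest that 3 against 3 libraries allow. After adjustment over the 5 shares tested it was 0.25. An exact test on the within-pair differences, not planned in advance, gave p = 0.25 for each of the 4 alpha shares. That is the smallest that 3 pairs allow. Per kilobase there were 0.754, 0.661 and 0.870 Gabra5 reads for each Gabra2 read in shControl and 1.38, 1.403 and 1.76 in shOpa1. With raw counts in place of counts per kilobase the share differences were 8.82 percentage points for Gabra5 and -9.68 for Gabra2.

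In counts per kilobase the shares of Gabra3 and Gabra4 overlapped between groups. Gabra3 held 32.1, 31.9 and 38.97% in shControl and 26.3, 26.2 and 34.0% in shOpa1 (exact permutation p = 0.3, adjusted 0.375), with within-pair differences of -5.80, -5.70 and -5.00 points. Gabra4 held 7.82, 7.94 and 6.45% in shControl and 10.5, 10.6 and 7.04% in shOpa1 (exact permutation p = 0.3, adjusted 0.375). With raw counts in place of counts per kilobase the Gabra4 difference was 3.26 points (exact permutation p = 0.1, unadjusted). That of Gabra3 was then -2.39 points (exact permutation p = 0.5, unadjusted). Of the beta transcripts, Gabrb1 made up 34.5, 37.1 and 30.3% in shControl and 35.2, 36.9 and 28.7% in shOpa1. The mean difference of this beta share was -0.389 points (exact permutation p = 0.9, adjusted 0.9), and it was above 0 in pair 1 and below 0 in pairs 2 and 3.

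**Figure D3:**
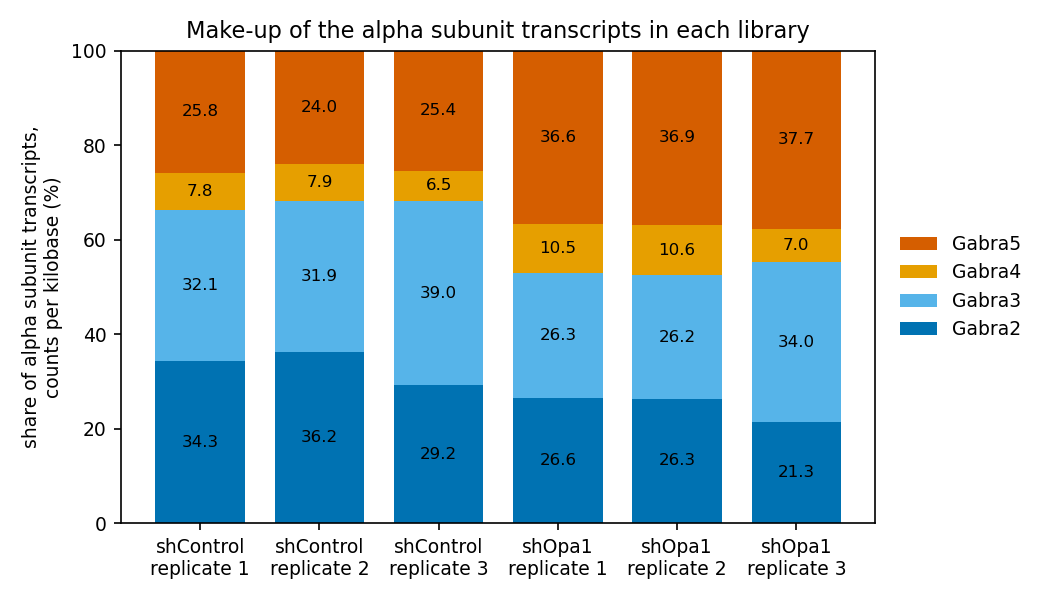
Share of each alpha subunit among the 4 alpha transcripts in each library, in percent of counts per kilobase, with the percentage printed in each segment. The Gabra5 segment is 24.0 to 25.8% in the shControl libraries and 36.6 to 37.7% in the shOpa1 libraries, and the Gabra2 segment is smaller in shOpa1 within each pair.

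The 7 genes lie on 5 chromosomes, and 3 of them, Gabra2, Gabra4 and Gabrb1, share a cluster on chromosome 5. Gabra4 and Gabrb1 are head to head: their annotated spans share 196 bases at their starts, and 46 exonic bases overlap, which is 0.756% of the exonic length of Gabra4 and 0.332% of that of Gabrb1. Gabrb1 fell, while Gabra4 stood at a log2 fold change of 0.19 and did not pass the test; the difference between them was not tested. Gabra2, which fell by 0.57 on the log2 scale, lies 473.9 kilobases from Gabra4. Of 8 tested neighbours outside the family, the nearest on either side within 1 megabase, 3 were higher, 2 lower and 3 not called. Over all tested genes 18.9% were called higher and 20.0% lower. Commd8, 7.54 kilobases beyond Gabrb1, stood at a log2 fold change of 0.11 (edgeR adjusted p = 0.231). On either side of Gabrd, the kinase gene Prkcz fell by 0.30 (edgeR adjusted p = 0.00419) and Cfap74 rose by 0.53 on the log2 scale (edgeR adjusted p = 0.0176). On the X chromosome the nearest such neighbours of Gabra3, Prrg3 and the centrin gene Cetn2, stood at 0.63 and -1.07 (edgeR adjusted p = 0.0252 and 0.000723).

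The promoters of Gabra2 and Gabra5, the alpha genes whose shares in counts per kilobase did not overlap between the groups, are shown to compare their composition. Each sequence is the 250 bases before the gene's start from RefSeq (GRCm38.p6), 5′ to 3′ along the gene's strand, and capitals mark a match to a searched motif.
Gabra2, chr5:71095850-71096099, minus strand: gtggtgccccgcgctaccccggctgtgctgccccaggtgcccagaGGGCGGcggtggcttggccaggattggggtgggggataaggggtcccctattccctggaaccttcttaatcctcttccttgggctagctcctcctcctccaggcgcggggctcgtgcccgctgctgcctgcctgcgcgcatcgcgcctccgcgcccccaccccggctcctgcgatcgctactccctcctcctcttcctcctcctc
Gabra5, chr7:57510060-57510309, minus strand: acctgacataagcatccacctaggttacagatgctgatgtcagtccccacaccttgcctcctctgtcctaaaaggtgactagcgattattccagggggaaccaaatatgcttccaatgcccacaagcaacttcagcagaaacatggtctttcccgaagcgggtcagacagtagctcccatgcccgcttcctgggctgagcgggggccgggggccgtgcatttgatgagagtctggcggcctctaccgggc
G and C made up 70.0% of the Gabra2 sequence and 56.4% of the Gabra5 sequence, against a median of 52.4% over 32851 promoter windows. RefSeq windows were matched by symbol for 6 of the 7 genes, 10 windows in all. Over windows of 300 bases, from 250 before to 50 after a start, 6 motifs were searched on both strands. The GC box GGGCGG was found for Gabra2, Gabra4 and Gabrb2 and is held by 35.7% of all windows. The EGR motif GCGNGGGCG, whose last letters overlap the GC box, was found for Gabrb1 and Gabrb2 (5.55% of all windows), and TATAAA for Gabra3 and Gabrb2 (13.6%). None of the 10 windows held the cAMP response element TGACGTCA (1.79% of all windows), TGATGNAA, the core of the C/EBP-ATF response element (3.97%), or the E-box CACGTG (7.15%). A match describes letters in the window and not binding.

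The 3′ UTRs were searched for GAAACTA, a 7-base sequence that an earlier search of these same fold changes had picked for its shift toward lower values, so its place in genes that fell supports nothing by itself. In the longest annotated 3′ UTR (GENCODE M21, GRCm38) it was held by 2 of the 7 subunits, Gabra2 and Gabrb1, and by 9.63% of 13851 tested genes. Gabra2 has a further copy across the end of its coding sequence. The sites are shown with flanks, 30 bases in all, with the 7 bases in capitals.
Gabra2, end of the coding sequence, chr5:70961785-70961814, minus strand: ggtcagtccatGAAACTAgacttggttact
Gabra2, 3′ UTR, chr5:70961057-70961086, minus strand: ttcaatcattgGAAACTAcctaaaatttag
Gabrb1, 3′ UTR, chr5:72145076-72145105, plus strand: taatttaaaatGAAACTAagaatggctttg
The 3′ UTR of Gabrb1 has 12228 bases and that of Gabra2 4205, against a median of 1236 over the genes searched, and of the 123 UTRs with at least 8000 bases 55.3% held the sequence. Gabrb2, which fell 1.6-fold, held none in a 3′ UTR of 2137 bases, nor did Gabra3 (1968 bases), Gabra4 (1950), Gabra5 (935) or Gabrd (421).

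The genes whose profile over the 6 libraries was most like that of Gabra5, by Pearson's r of log2(CPM + 0.5), were Champ1, Srsf3 and Gtf2ird2, with r of 0.9994, 0.9992 and 0.9989. The genes most like Gabrb1, the subunit with the lowest fold change, were Ankib1, Cyp4x1 and Gorasp2, with r of 0.9996, 0.9988 and 0.9987. With 6 libraries in 2 groups such values are common: of 11959 genes compared, r was over 0.95 with Gabra5 for 415 and with Gabrb1 for 1114. The named genes had log2 fold changes of 0.20, 0.31 and 0.21 for the first set, beside 0.42 for Gabra5, and -1.22, -0.997 and -1.27 for the second, beside -0.70 for Gabrb1.

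Scaffold, adhesion and trafficking genes affect how GABA-A receptors are held at the synapse and reach the surface. The list does not separate genes that promote this from genes that limit it. Of 22 such genes tested, 6 rose, 3 fell and 13 did not pass (edgeR without a block), where 38.9% of all tested genes were called. The blocked fit called 11 higher and 5 lower, where 59.5% of all were called, and library totals gave 11 higher and 2 lower. Their median was 0.11, beside -0.01 over all tested genes. Gabarapl1, a relative of the receptor-associated protein GABARAP that also acts in autophagy, rose from 177 ± 16.8 to 347 ± 18.5 CPM (SD, n = 3; log2 fold change 0.97, edgeR adjusted p = 0.000228), though exons of another gene overlap 28.3% of its exonic length. Zdhhc3, a palmitoyltransferase for gamma subunits, rose by 0.39 and the trafficking adaptor Trak2 by 0.54 on the log2 scale (edgeR adjusted p = 0.00184 and 0.00259). Slitrk3, an adhesion protein of inhibitory synapses, fell by 0.58 (edgeR adjusted p = 0.000772). Named after its value was seen, the scaffold gene Gphn (gephyrin) rose by 0.38 on the log2 scale (edgeR adjusted p = 0.0360), a call lost in 5 of 15 alternatives, each with 1 library left out: shControl replicate 1 or 2 or any of the shOpa1 libraries.

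Of 7 tested genes for GABA synthesis, transport and breakdown, 3 fell, 1 rose and 3 did not pass, beside 38.9% called of all tested genes. The vesicular GABA transporter Slc32a1 fell from 300 ± 27.3 to 206 ± 9.26 CPM (SD, n = 3; edgeR adjusted p = 0.00192). The GABA-synthesising enzyme Gad2 rose by 0.34 and the breakdown enzyme Aldh5a1 fell by 0.18 on the log2 scale (edgeR adjusted p = 0.00780 and 0.0481). The Aldh5a1 call was lost in 11 of 15 alternatives, among them each left-out library, DESeq2 and limma-voom, with adjusted p up to 0.527. The blocked fit called 5 of the 7 lower and 1 higher, beside 59.5% of all tested genes. The list median was -0.18. Exons of other genes overlap 24.9% of the exonic length of Slc32a1 and 17.7% of that of Aldh5a1.

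Chloride transporters, channels and their kinases set the driving force of the current. Of 12, 5 fell, 0 rose and 7 did not pass, with a median of -0.12, beside 38.9% of all tested genes called. The 5 became 3 without shOpa1 replicate 1 and 2 without shOpa1 replicate 2, and with library totals 3 fell and 1 rose. With the replicate block 6 fell and 2 rose, beside 59.5% of all called. The kinases Wnk3 and Wnk1 fell by 0.50 and 0.25 and the chloride channel Clcn2 by 0.47 on the log2 scale (edgeR adjusted p = 0.00254, 0.0124 and 0.0150). Clcn2 lost its call without shOpa1 replicate 1 or 2, and Wnk1 without shOpa1 replicate 2 and with library totals.

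Among 9 genes of the metabotropic GABA-B receptor and its partners, 3 fell, 0 rose and 6 did not pass, with a median of -0.32, beside 38.9% of all tested genes called and 20.0% called lower. With the replicate block 8 fell, beside 30.7% of all tested genes. Both receptor subunits were among the 3: Gabbr1 went from 1078 ± 73.5 to 810 ± 41.7 CPM and Gabbr2 from 295 ± 8.23 to 240 ± 27.2 CPM (SD, n = 3; edgeR adjusted p = 0.00413 and 0.0290). The Gabbr2 call was lost with library totals and without any 1 library other than shOpa1 replicate 3. The potassium channel subunit Kcnj9 fell by 0.49 (edgeR adjusted p = 0.00496), and Kctd16, an auxiliary subunit, stood at -0.41 (edgeR adjusted p = 0.0647, and 0.0232 in the blocked fit).

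Neurosteroids potentiate GABA-A receptors, those with delta above all. Of 5 tested genes listed for their synthesis, 3 fell, 0 rose and 2 did not pass, beside 20.0% of all tested genes called lower. The median was -0.87, the value of Srd5a3. Whether Srd5a3 acts in neurosteroid synthesis in these cultures was not tested. In the blocked fit 4 fell, beside 30.7% of all. The steroid reductase Srd5a1 fell from 25.3 ± 5.78 to 4.39 ± 0.512 CPM and Srd5a3 from 10.8 ± 0.624 to 5.91 ± 0.481 CPM (SD, n = 3; edgeR adjusted p = 0.000122 and 0.00125). Cyp11a1, which makes pregnenolone, fell from 0.998 ± 0.123 to 0.163 ± 0.0411 CPM (SD, n = 3; edgeR adjusted p = 0.000778). It was counted at only 27, 26 and 24 reads in shControl and 5, 7 and 4 in shOpa1. The cholesterol transporter Star stood at -0.21 (edgeR adjusted p = 0.181, and 0.0407 in the blocked fit). Exons of another gene overlap 16.4% of the exonic length of Srd5a1. In this list 4 genes were below 1 CPM in every library, 3 of them untested.

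**Figure D4:**
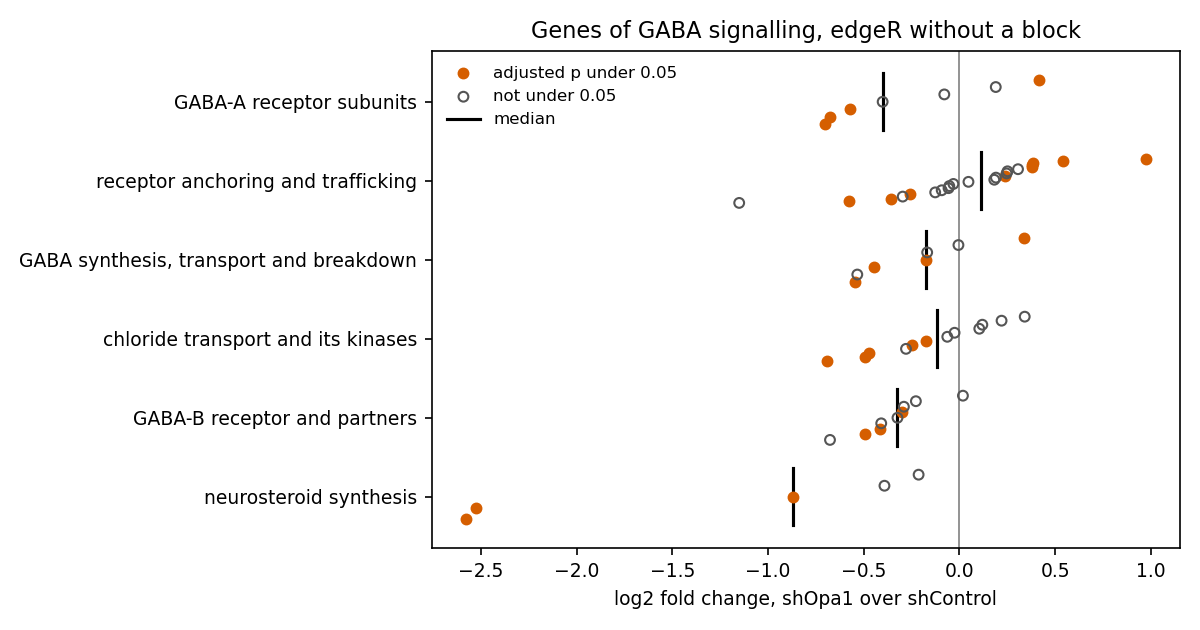
Log2 fold change, shOpa1 over shControl, of each tested gene in the subunit group and the 5 lists of GABA signalling, with filled points for an edgeR adjusted p under 0.05 without a block and a black line at each list's median. The subunits lie between -0.70 and 0.42, and the anchoring and trafficking list is the one with a median above 0, at 0.11.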

How the data were processed

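RNA from 3 shControl and 3 shOpa1 cultures was sequenced from a stranded mRNA kit, per the labels' protocols. The deposited counts are raw reads per gene from featureCounts 1.6.0, run for read pairs with the Ensembl release 99 annotation of GRCm38, per the file headers. That command has no strand or multi-mapping option. The submitters' processing notes name HISAT2 and DESeq2, without versions, and mm10. The authors also deposited log2 fold changes, p-values, a score (fold change over its error) and size-factor-scaled signal. Of 55471 identifiers 55144 were paired with a symbol, and 0 rows lacked an identifier.

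Counts were tested with edgeR 4.0.16 (R 4.3.3, TMM scaling, filterByExpr, robust quasi-likelihood test) and Benjamini-Hochberg adjustment over all 16562 tested genes. A check on simulated counts came first. Those counts held no replicate effect, so the check does not cover the pairing seen here. Alternatives were DESeq2 1.42.0, limma-voom 3.58.1, other scalings and filters, left-out libraries and a replicate block. The labels give both groups the same replicate numbers. Same-numbered libraries deviated together from their group means (r of 0.499, 0.515 and 0.649, against at most 0.102 for other pairs), so the numbers were taken to pair the libraries. Replicates differed by more than sampling noise (chi-square per degree of freedom 6.11 to 30.8). Shares within the alpha or beta subunits used counts per kilobase and exact two-sided permutation tests (Python 3.11.15, scipy 1.17.1).

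The members, lists and alternatives were chosen with earlier results of these data known. Named genes were the 7 subunits, Opa1, up to 4 tested genes per list with the smallest p, the nearest tested neighbours within 1 megabase, and the 3 genes with the highest r for the subunits with the highest and lowest fold change, among genes averaging 50 or more counts a library. Some genes that this rule names are not reported here.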

Additional observations from a re-analysis of the deposited data

How the results depend on the processing

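Gabra2, Gabrb1 and Gabrb2 were called lower in all 15 alternatives, with adjusted p at most 0.00547, 0.00547 and 0.0160 (edgeR, DESeq2 or limma). With the replicate block 9851 genes were called instead of 6442, and 4589 to 6626 with 1 library left out; 3 to 6 of the 7 subunits were then called. Gabra3 was called with the replicate block (-0.40), with replicate 3 as a second batch (-0.40), in replicates 1 and 2 only (-0.41) and in DESeq2 with that batch (-0.39), an alternative chosen after seeing the data. With 1 library left out Gabra3 ranged from -0.60 to -0.21 and was called only without shOpa1 replicate 3 (-0.60). Gabra4 was called in replicates 1 and 2 only (0.30) and without shOpa1 replicate 3 (0.32), and ranged from 0.10 to 0.32 with 1 library left out. Gabra5 ranged from 0.35 to 0.50 and lost its call without shControl replicate 1 or 2. Gabrd turned positive with library totals only (0.044), a scaling that moved the median of all genes from -0.01 to 0.11, and without shControl replicate 1 (0.05), shControl replicate 2 (0.16) or shOpa1 replicate 3 (0.21), ranging from -0.40 to 0.21. The Gabrb1 share of beta transcripts turned positive in replicates 1 and 2 only (0.241 points), without shControl replicate 2 (1.19) and without shOpa1 replicate 3 (2.06), ranging from -2.20 to 2.06. The replicate block gave 16 called anchoring and trafficking genes, 8 chloride genes and 8 GABA-B genes, against 9, 5 and 3. Replicate 3 as a second batch gave 15 anchoring and 8 GABA-B genes, with 9353 genes called in all. Replicates 1 and 2 only gave 16 and 6, with 8496 called in all, and DESeq2 with the batch 15 and 5, with 7927 in all. With 1 library left out these lists had 6 to 11, 2 to 5 and 2 to 3 called genes. The replicate block changed no other call among the subunits. The cause of these differences was not tested. Where leaving out a library left 2 in a group, the spread was pooled over both groups. Read counts of 112 to 353 per library limit the precision for Gabrd.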
